A study of Mus musculus with 16 samples.

Results

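The genes described here were 10 members of the Wnt and planar polarity systems, the ligands Wnt4, Wnt5a, Wnt5b, Wnt7a, Wnt7b, Wnt10a and Wnt11, the receptor Ror2, and the polarity proteins Vangl2 and Prickle1, out of 49315 gene identifiers counted and 15993 that passed the filter on low counts. They were picked by symbol, and the choice drew on their levels in these same libraries, in which Wnt5a and Prickle1 stood high in female cultures given house dust mite extract (HDM). All 10 passed the filter, and the lowest of their 160 values was 16 counts. The libraries came from primary mouse tracheal epithelial cells (MTECs) of male and female littermates on a C57BL/6J background, labelled wild type (WT) or LMAN1 knockout (KO). LMAN1 is a cargo receptor of the endoplasmic reticulum that also binds HDM. The cells of 3 tracheas were pooled for each pair of conditions, plated on inserts coated with basement membrane laid down by 3T3 cells, and differentiated at an air-liquid interface. They were then left naive or received HDM at 20 µg/ml overnight, which made 8 groups of 2 biological replicates. The labels give no mouse age. Totals ran from 21860698 to 43442188 counts per library, and levels are given as CPM, counts scaled to a common library size by trimmed means (TMM).

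Wnt proteins are secreted, lipid-modified ligands that bind Frizzled receptors together with a co-receptor. One branch of the signal stabilises beta-catenin, which enters the nucleus and turns on genes through TCF/LEF factors. Another branch, for which Wnt5a, Wnt11 and the co-receptor Ror2 are best known, acts on the cytoskeleton and feeds into planar cell polarity, the system in which Vangl and Prickle proteins gather on one side of each cell and Frizzled and Dishevelled on the other. In the airway, planar polarity aligns the cilia of neighbouring cells so that they beat toward the larynx.

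RefSeq promoter sequences on build GRCm38.p6 were at hand for 7 of the 10 genes, with 11 start sites among them. Those of Wnt11, Ror2 and Prickle1 are printed because these genes were among the 5 that stood above every other library in all 4 female HDM libraries. Each line holds the 250 bases before the start site, 5′ to 3′ on the strand of the gene. Capitals mark matches on either strand to CTTTGAT, the core of the TCF/LEF site, or to TGANTCA, the core of the AP-1 site.
Wnt11, chr7:98834862-98835111, plus strand: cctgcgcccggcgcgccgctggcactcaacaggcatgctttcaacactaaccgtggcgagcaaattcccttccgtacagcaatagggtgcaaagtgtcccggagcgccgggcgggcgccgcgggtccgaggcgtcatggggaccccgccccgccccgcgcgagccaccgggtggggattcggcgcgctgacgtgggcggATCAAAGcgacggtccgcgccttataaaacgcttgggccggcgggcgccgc
Ror2, chr13:53286125-53286374, minus strand: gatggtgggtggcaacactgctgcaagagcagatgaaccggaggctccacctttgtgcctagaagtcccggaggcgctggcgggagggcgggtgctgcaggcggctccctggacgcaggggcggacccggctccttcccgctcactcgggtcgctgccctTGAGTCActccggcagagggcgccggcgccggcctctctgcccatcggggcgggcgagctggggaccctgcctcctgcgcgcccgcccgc
Prickle1, chr15:93595903-93596152, minus strand: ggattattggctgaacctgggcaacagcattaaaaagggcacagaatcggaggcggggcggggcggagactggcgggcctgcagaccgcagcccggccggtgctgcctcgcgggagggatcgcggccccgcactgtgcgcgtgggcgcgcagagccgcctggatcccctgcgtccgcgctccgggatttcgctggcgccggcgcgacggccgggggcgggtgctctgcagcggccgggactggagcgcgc
The Wnt11 window printed held a TCF/LEF match, the Ror2 window an AP-1 match and the Prickle1 window neither. Wnt11 and Prickle1 each have another start site in the table, not printed, with no match to either pattern. Over the 11 member promoters, 2 had a TCF/LEF match and 2 an AP-1 match. Of 32851 promoters of this length, 3.21% had a TCF/LEF match and 6.75% an AP-1 match. No stretch matched both patterns in these windows, and a match describes only the letters of this window.

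Before the genes themselves, the targeted transcript was checked. Lman1 lay between 101 and 144 CPM in the 8 WT libraries. It lay between 12.8 and 14.2 CPM in 3 of the 4 naive libraries labelled KO, and between 63.4 and 78.1 CPM in the remaining naive library, male replicate 2, and all 4 HDM libraries labelled KO. The HDM libraries labelled KO thus held 53.9% to 64.8% of the WT mean, so that KO below names a label and not a measured loss. Epithelial markers were high in every library, with Cdh1 at 1312 to 1802 CPM. Among leukocyte markers, Ptprc (2.29 to 6.41 CPM), Cd68 (8.43 to 31.0 CPM) and Itgam (0.999 to 2.29 CPM) were detected at low levels in every library, and the T-cell marker Cd3e was at 0 in 15 of 16.

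In female WT cultures, HDM libraries held more of 9 of the 10 genes and less Wnt4 than naive libraries, and 5 genes, Wnt5a, Wnt10a, Wnt11, Ror2 and Prickle1, were also higher in female HDM libraries labelled KO. No member passed the threshold in male cultures, where 0.0% of all genes did. In the female comparisons 43.1% of all genes passed in WT and 10.4% in cultures labelled KO. The female comparisons chose the genes, so their values are given as a description and carry no p.

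Wnt5a (chr14:28504750-28527448, GRCm38), the prototype of the ligands that act on polarity, stood at 40.0 and 49.0 CPM in naive and 188 and 184 CPM in HDM libraries of female WT cultures. In female libraries labelled KO it was at 39.6 and 46.4 CPM in naive and 73.3 and 82.9 CPM in HDM cultures. The 4 female HDM libraries lay above the other 12, whose highest value was 49.0 CPM, and the WT pair lay well above the pair labelled KO. The HDM minus naive difference was 2.06 ± 0.17 (SE, n = 2 against 2) on the log2 scale in WT and 0.86 ± 0.17 in cultures labelled KO.

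Prickle1 (chr15:93499114-93595891), a cytoplasmic partner of Vangl2 at the cell border, had the largest log2 differences of the 10 genes in both female comparisons, 2.91 ± 0.44 in WT and 2.35 ± 0.44 in cultures labelled KO. Its levels were 3.09 and 6.16 CPM in naive and 29.2 and 41.4 CPM in HDM libraries of female WT cultures. In cultures labelled KO they were 2.37 and 3.87 CPM naive and 15.4 and 16.3 CPM with HDM. No male library exceeded 4.20 CPM, and the lowest, an HDM library labelled male KO, stood at 0.551 CPM.

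Ror2 (chr13:53109312-53286124), the receptor tyrosine kinase that binds Wnt5a, followed the same order. Female WT libraries held 3.12 and 4.29 CPM when naive and 20.4 and 19.8 CPM with HDM. Female libraries labelled KO held 3.31 and 4.15 CPM when naive and 10.9 and 14.7 CPM with HDM, whereas male libraries ran from 1.34 to 6.06 CPM. The log2 difference with HDM was 2.43 ± 0.43 in female WT and 1.78 ± 0.43 in female cultures labelled KO.

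Wnt11 (chr7:98835112-98855195), a ligand of convergent cell movements in the embryo, was at 5.63 and 7.37 CPM in naive and 22.4 and 26.8 CPM in HDM libraries of female WT cultures. In female cultures labelled KO it was at 5.36 and 6.26 CPM naive and 15.9 and 15.0 CPM with HDM. Male libraries held 2.17 to 5.92 CPM, which overlapped with the naive female libraries but not with the 4 female HDM libraries. The log2 differences were 1.91 ± 0.34 in WT and 1.41 ± 0.34 in cultures labelled KO.

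Wnt10a (chr1:74791516-74804179), a ligand needed for teeth and skin appendages, rounds off these 5. It stood at 13.2 and 15.0 CPM in naive and 78.2 and 77.3 CPM in HDM libraries of female WT cultures, and at 14.8 and 21.5 CPM naive and 48.0 and 46.9 CPM with HDM in cultures labelled KO. The gap to the other libraries was narrow here, since male WT HDM replicate 1 reached 44.7 CPM while its partner had 22.1 CPM. The log2 differences were 2.46 ± 0.40 in WT and 1.39 ± 0.39 in cultures labelled KO.

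**Figure D1:**
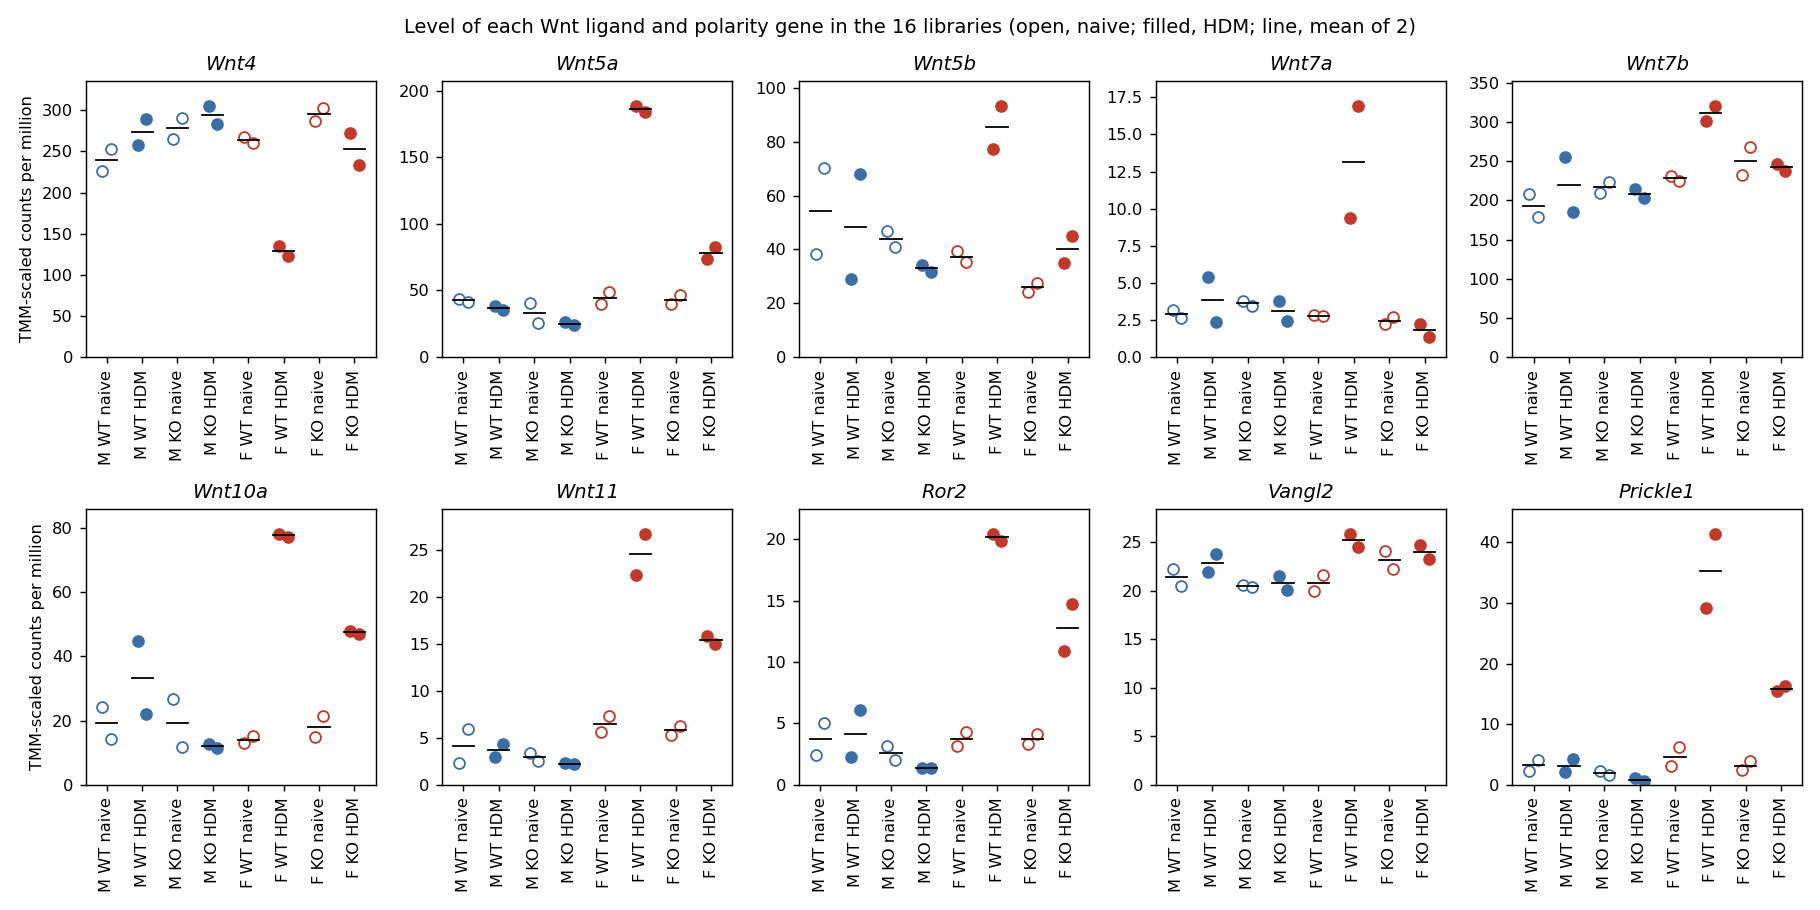
Level of each of the 10 genes in TMM-scaled CPM (y axis, from 0) in the 16 libraries, by group (M, male; F, female; naive or HDM). Each point is a library and each line the mean of 2; the 4 female HDM libraries stand above the other 12 for Wnt5a, Wnt10a, Wnt11, Ror2 and Prickle1, and Wnt4 is lowest in the 2 female WT HDM libraries.

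The other 5 genes overlapped between the female HDM libraries and the rest. Wnt7a (chr6:91363981-91411363), best known from limb and nervous system development, was high only in the female WT HDM pair, at 9.36 and 16.9 CPM against 2.83 and 2.74 CPM in naive cultures, and the highest of the remaining 14 libraries had 5.39 CPM. In the female HDM pair labelled KO it was at 2.26 and 1.33 CPM. Its log2 difference with HDM was 2.23 ± 0.40 in WT and -0.46 ± 0.42 in cultures labelled KO.

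Wnt5b (chr6:119432531-119544347), the close relative of Wnt5a, had 39.3 and 35.2 CPM in naive and 77.4 and 93.3 CPM in HDM libraries of female WT cultures, and 24.1 and 27.6 CPM naive and 34.9 and 45.0 CPM with HDM in cultures labelled KO. Male WT replicates of this gene were far apart, with 38.4 and 70.3 CPM in naive and 29.0 and 67.9 CPM in HDM libraries. The log2 differences were 1.20 ± 0.34 in female WT and 0.63 ± 0.34 in female cultures labelled KO.

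Wnt4 (chr4:137277489-137299726), a ligand of epithelial remodelling in kidney and gonad, moved the other way. It was at 268 and 260 CPM in naive and 135 and 123 CPM in HDM libraries of female WT cultures, and these HDM values were the lowest of the 16. In female cultures labelled KO it had 288 and 303 CPM naive and 273 and 233 CPM with HDM. The log2 differences were -1.03 ± 0.10 in WT and -0.22 ± 0.10 in cultures labelled KO.

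Wnt7b (chr15:85535437-85582473), required for growth of the embryonic lung, and Vangl2 (chr1:172000960-172028444), a membrane protein at the core of planar polarity, were the steadiest of the 10. Wnt7b stood at 231 and 225 CPM naive and 302 and 320 CPM with HDM in female WT cultures, against 233 and 268 CPM and then 246 and 238 CPM in cultures labelled KO. Vangl2 ranged over all 16 libraries only from 20.0 to 25.8 CPM, and its log2 difference with HDM was 0.27 ± 0.09 in female WT and 0.05 ± 0.09 in female cultures labelled KO. The polarity partners Vangl2 and Prickle1 thus differed widely in how their transcripts varied in these libraries.

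In counts, the edgeR quasi-likelihood test with Benjamini-Hochberg adjustment (adjusted p under 0.05) called 10 of 10 genes in female WT cultures, 9 higher and 1 lower, where 43.1% of all genes were called, 20.6% higher and 22.4% lower. In female cultures labelled KO it called 5 of 10, all higher, where 10.4% of all genes were called and 4.63% were called higher. The median log2 difference of the 10 genes was 1.99 in WT and 0.75 in cultures labelled KO, against -0.02 and -0.01 over all genes tested. As these contrasts chose the genes, nothing is read from the counts. The KO count was fragile: it was 0 without female KO naive replicate 1, 0 without female KO HDM replicate 2, 2 without naive replicate 2 and 3 without HDM replicate 1. With a replicate block it was 4, without Wnt10a. Of all genes tested, 7.93% had all 4 female HDM libraries above the other 12, and 9.9% had them below.

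**Figure D2:**
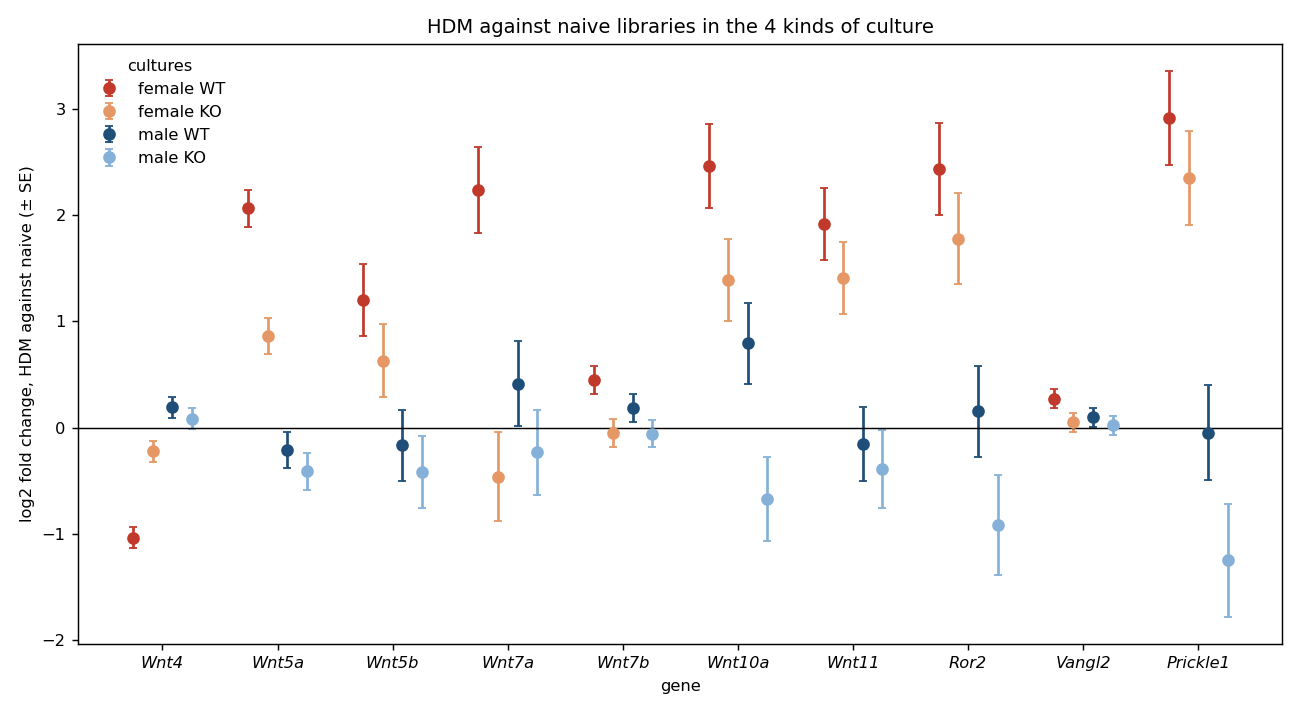
Log2 fold change of HDM against naive libraries (y axis, points) with its standard error (bars) for each gene in female WT, female KO, male WT and male cultures labelled KO, 2 libraries against 2. Female values run up to 2.91 for Prickle1, and male values lie between -1.25 and 0.79.

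The male comparisons were not named by the rule that chose the genes and were tested. Male HDM libraries do enter the female against male comparisons that chose the genes, so these p-values are not independent of the choice. In male WT cultures, 0 of the 10 genes passed the edgeR quasi-likelihood test with Benjamini-Hochberg adjustment, where 0.0% of all genes did, and the smallest adjusted p was 0.936. Wnt10a had the largest log2 difference there, 0.79 ± 0.38, from 24.2 and 14.3 CPM naive to 44.7 and 22.1 CPM with HDM. In male cultures labelled KO again 0 of 10 passed, with 0.0% of all genes called. Prickle1 went from 2.31 and 1.56 to 1.07 and 0.551 CPM, a log2 difference of -1.25 ± 0.53, and Wnt5a from 40.4 and 25.9 to 26.0 and 23.8 CPM, a difference of -0.41 ± 0.17. These 2 genes had an unadjusted p under 0.05 (0.0378 and 0.0368), and none of the 10 did in male WT cultures. DESeq2 called none of the 10 in either male comparison. Over all genes, 665 and 857 had an unadjusted p under 0.05 in male WT and male cultures labelled KO, and DESeq2 called 2 and 1.

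Female and male cultures were set side by side under HDM, in comparisons that also chose the genes. Wnt5a differed by 2.34 ± 0.18 on the log2 scale in WT and 1.65 ± 0.18 in cultures labelled KO, female minus male. The corresponding values of Prickle1 were 3.49 ± 0.46 and 4.29 ± 0.51. For Wnt4 they were -1.09 ± 0.10 and -0.22 ± 0.10. In WT cultures 7 genes were called higher and 1 lower where 41.6% of all genes were called (20.3% higher and 21.3% lower), and in cultures labelled KO 5 were called higher where 25.3% were called and 12.4% were called higher. The female minus male difference in HDM response was called for 7 genes in WT (24.2% of all genes) and for Wnt5a, Ror2 and Prickle1 in cultures labelled KO (3.56%). The WT count was 4 without female WT naive replicate 1, and the KO count was 0 without female KO naive replicate 1, female KO HDM replicate 2 or either male HDM library labelled KO. These comparisons share their HDM libraries with the female responses above.

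The comparison of the sexes in naive cultures was not named by the rule, though naive female libraries enter the female responses that chose the genes. None of the 10 genes passed the edgeR quasi-likelihood test with Benjamini-Hochberg adjustment between naive female and male libraries, either in WT cultures, where 0.1% of all genes did, or in cultures labelled KO, where 0.188% did. In cultures labelled KO Wnt11 had 5.36 and 6.26 CPM in female and 3.41 and 2.49 CPM in male libraries (log2 difference 0.98 ± 0.35, edgeR adjusted p = 0.353). These groups did not overlap, which was not counted over all genes. Wnt5a at 0.38 ± 0.17 and Wnt5b at -0.77 ± 0.34 also had an unadjusted p under 0.05, and DESeq2 called none of the 10 in either comparison.

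A question the design poses is whether the genotype label altered the HDM response of female cultures. Under HDM, Wnt5a, Wnt5b and Wnt7a were lower and Wnt4 was higher in female libraries labelled KO than in WT libraries, and the responses of Wnt5a, Wnt7a and Wnt4 themselves differed. These genotype comparisons were not part of the rule that chose the genes, but they are computed from the female HDM libraries that the choice drew on. For the chosen genes, the p-values of both comparisons are therefore not independent of the choice. They are given below as a description and not as a separate test.

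Between the female HDM pairs, 4 of 10 genes passed the edgeR quasi-likelihood test with Benjamini-Hochberg adjustment, 1 higher and 3 lower in libraries labelled KO, where 29.2% of all genes passed, 14.9% higher and 14.3% lower. Wnt4 was higher by 0.97 ± 0.10 on the log2 scale (edgeR adjusted p = 8.78e-05). Wnt5a was lower, with a log2 difference of -1.25 ± 0.17 (edgeR adjusted p = 0.000446), and so was Wnt7a at -2.88 ± 0.42 (0.000764). In all 3 genes both libraries labelled KO lay outside the WT pair, and how many of all genes did so was not counted. Wnt5b, at -1.09 ± 0.34 (edgeR adjusted p = 0.0322), lost its call without WT HDM replicate 2 (0.171), without KO HDM replicate 1 (0.157) or without KO HDM replicate 2 (0.0878). Prickle1 at -1.15 ± 0.41 (edgeR adjusted p = 0.0535) and Wnt7b at -0.36 ± 0.13 (0.0572) missed the threshold, and DESeq2 called both. Wnt10a, Wnt11 and Ror2 differed by -0.71 ± 0.38, -0.67 ± 0.33 and -0.66 ± 0.41, none of which passed. The median of the 10 differences was -0.69, against 0.00 over all genes.

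In female cultures labelled KO, Lman1 itself was at 12.8 and 12.8 CPM in naive and 66.6 and 78.1 CPM in HDM libraries. Female WT libraries held 123 and 123 CPM naive and 117 and 101 CPM with HDM. Each HDM response of female cultures labelled KO thus compares pairs that differ in the targeted transcript. The part of this gap in those responses was not tested. The difference between the female responses, KO minus WT, was tested as an interaction. It passed the edgeR quasi-likelihood test with Benjamini-Hochberg adjustment for 3 of 10 genes, where 11.2% of all genes passed. Wnt5a gave -1.20 ± 0.24 (edgeR adjusted p = 0.0107), Wnt7a -2.69 ± 0.58 (0.0156) and Wnt4 0.81 ± 0.14 (0.00545). Without both WT replicate 2 libraries the values were -1.37, -2.18 and 0.77, and none of the 3 passed any longer. Wnt5a and Wnt7a were also lost without WT naive replicate 1 or KO naive replicate 2, and Wnt7a without WT HDM replicate 2 or KO HDM replicate 2. For Prickle1 (-0.57 ± 0.60), Ror2 (-0.65 ± 0.59), Wnt11 (-0.50 ± 0.47) and Wnt10a (-1.07 ± 0.54) the interaction did not pass, and the standard errors leave room for sizeable differences.

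**Figure D3:**
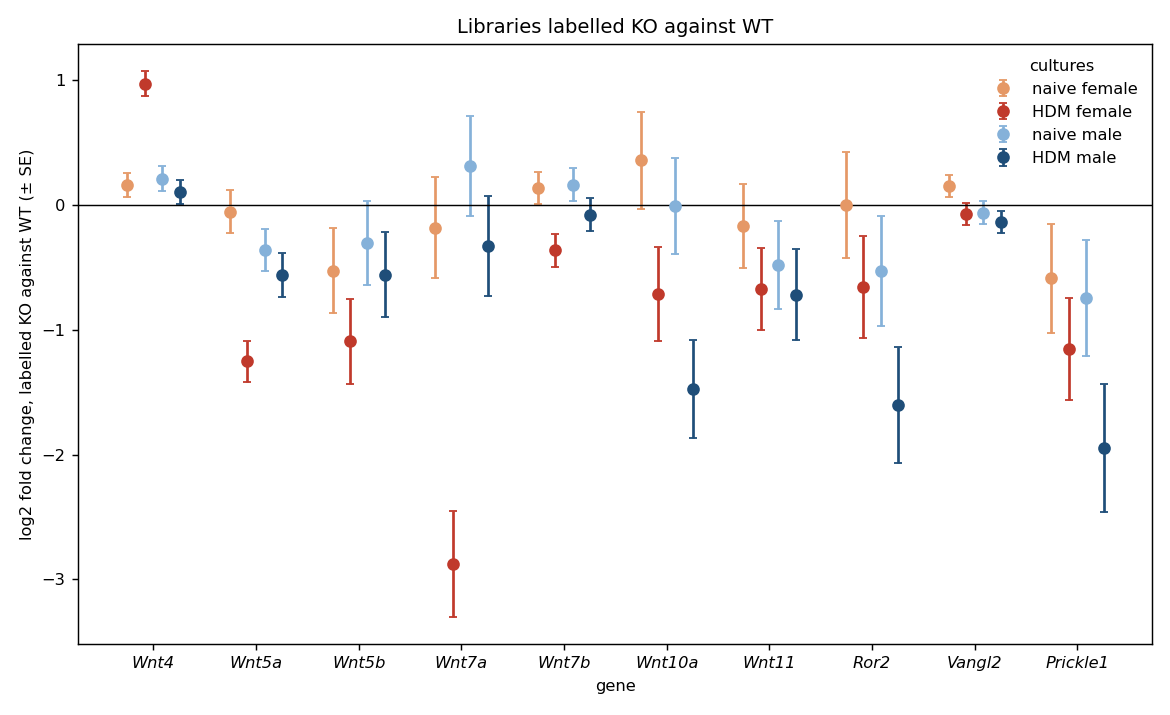
Log2 fold change of libraries labelled KO against WT (y axis, points) with its standard error (bars) for each gene in naive and HDM cultures of both sexes, 2 libraries against 2. Under HDM, female Wnt7a lies at -2.88 and Wnt4 at 0.97, while the naive female values lie between -0.59 and 0.36.

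In naive cultures the genotype comparison called 0 of 10 genes and 0.0% of all genes in females, and likewise 0 of 10 and 0.0% in males, by the edgeR quasi-likelihood test with Benjamini-Hochberg adjustment. None of the 10 had an unadjusted p under 0.05 in either sex, and DESeq2 called none. Lman1 itself, at -3.26 ± 0.48 in naive females, had an unadjusted p of 2.52e-05 and an edgeR adjusted p of 0.403. Under HDM in males the test called 0 of 10 genes and 0.0% of all genes. Over all genes, 2897 had an unadjusted p under 0.05 in this comparison, and DESeq2 called 538. Of the 10 genes, 4 had an unadjusted p under 0.05 and were called by DESeq2, all lower in libraries labelled KO. They were Prickle1 (2.05 and 4.20 against 1.07 and 0.551 CPM), Ror2 (2.24 and 6.06 against 1.39 and 1.34 CPM), Wnt10a (44.7 and 22.1 against 12.7 and 11.4 CPM) and Wnt5a (38.2 and 35.3 against 26.0 and 23.8 CPM). In all 4 the pairs did not overlap, and the edgeR adjusted p ran from 0.161 to 0.182. These 4 were picked by their p, so the gap between pairs adds no further test. How many of all genes had pairs apart was not counted.

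The ligands were also compared with each other, which needs a level per kb of exon. Of 19 mouse Wnt genes listed, 12 were tested, and Wnt2, Wnt3, Wnt8a, Wnt8b and Wnt9b had 3 counts or fewer in every library. The 7 ligands made up 91.1% to 96.0% of the summed ligand level in each library. In the naive groups and in male HDM groups the order began with Wnt4, then Wnt7b, then Wnt5b, with Wnt5b and Wnt10a overlapping in male WT HDM libraries. In the female HDM pair labelled KO it began with Wnt4, Wnt7b, Wnt10a and Wnt5b, and none of these overlapped. In female WT HDM libraries it was Wnt7b at 63.5 ± 2.7 CPM per kb (SD, n = 2), Wnt5b at 32.2 ± 4.2, Wnt10a at 31.5 ± 0.25 and Wnt4 at 30.7 ± 2.0. Among these, Wnt5b, Wnt10a and Wnt4 overlapped and could not be ranked. Wnt5a followed at 23.8 ± 0.39 CPM per kb, a level that its long exons of 7823 bases lower relative to the others.

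Wnt4 went from 44.1% and 43.0% of the summed ligand level in female WT naive libraries to 15.8% and 13.6% with HDM, as a description. Wnt5a went from 3.53% and 4.34% to 11.8% and 10.9%, and Wnt10a from 3.69% and 4.22% to 15.5% and 14.5%. In female cultures labelled KO Wnt4 went from 47.4% and 44.1% to 37.2% and 33.3%. The summed level over all ligands was 204 and 216 CPM per kb in female WT HDM libraries and 175 and 167 CPM per kb in the pair labelled KO. Every other library lay between 135 and 164 CPM per kb.

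**Figure D4:**
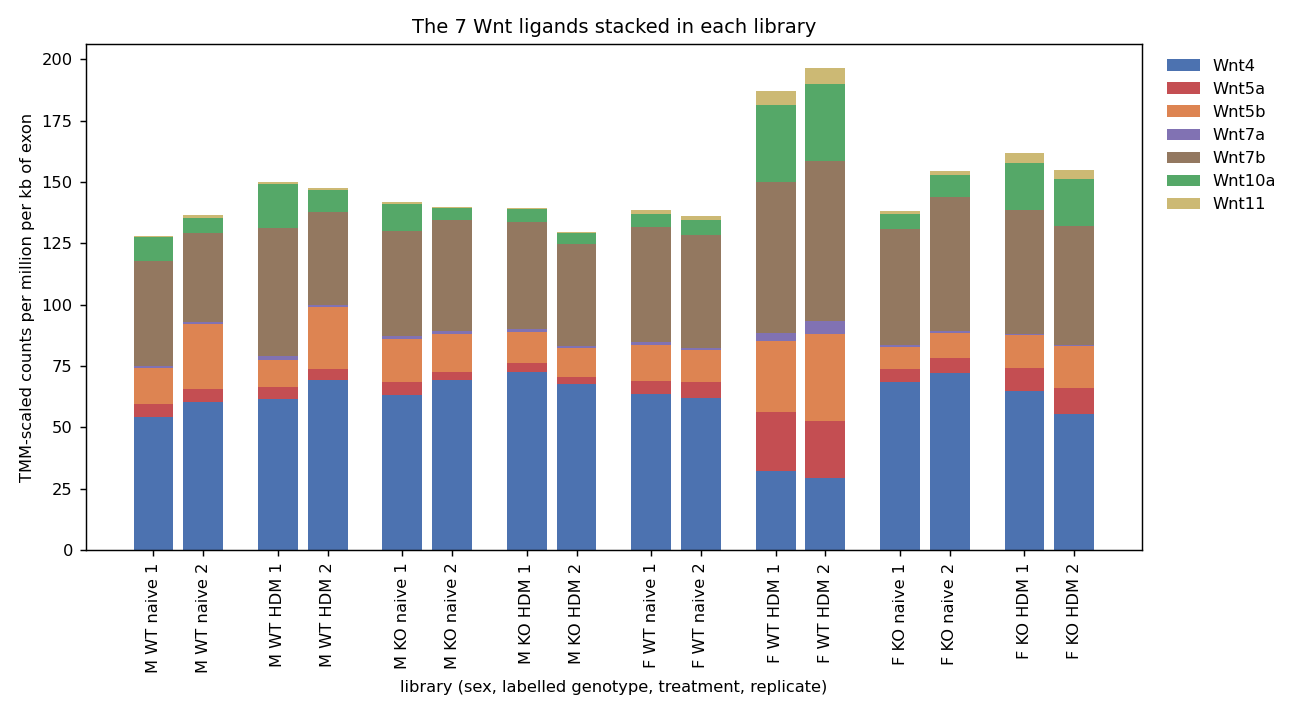
Level of the 7 ligands per kb of exon (y axis, TMM-scaled CPM per kb, stacked from 0) in each of the 16 libraries. The Wnt4 segment is smallest in the 2 female WT HDM libraries, where Wnt5a, Wnt5b and Wnt10a are larger than elsewhere.

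Of the other Wnt and polarity genes, 88 were listed and 69 tested. In female WT cultures, 21 rose and 14 fell with HDM, and in female cultures labelled KO 8 rose and 6 fell, by the edgeR quasi-likelihood test with Benjamini-Hochberg adjustment. These were 50.7% of the 69 in WT, where 43.1% of all genes were called (20.6% higher and 22.4% lower), and 20.3% in cultures labelled KO, where 10.4% were. The median log2 difference was 0.04 in WT and 0.10 in cultures labelled KO, against -0.02 and -0.01 over all genes tested. The share of a subgroup of these genes was not tested against that of all genes. None of the 69 passed in either male comparison, where 2 in WT and 4 in cultures labelled KO had an unadjusted p under 0.05 and DESeq2 called none. At least 1 gene of each of the 7 subgroups passed in female WT cultures. The WT count of 35 became 19 without naive replicate 1 and 23 without HDM replicate 2, and the KO count of 14 became 3 to 7 as each library was left out.

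Among receptors, 7 of 15 rose and 2 fell in female WT cultures, where 20.6% of all genes were called higher and 22.4% lower. Ror1, the relative of Ror2, went from 0.763 and 0.809 to 10.5 and 9.85 CPM, a log2 difference of 3.69 ± 0.34 (edgeR adjusted p = 1.08e-05). In cultures labelled KO it rose by 2.24 ± 0.34, from 0.598 and 0.836 to 2.83 and 3.94 CPM (edgeR adjusted p = 0.00249). The Frizzled receptor Fzd2 rose by 0.99 ± 0.07 in WT cultures (edgeR adjusted p = 1.84e-06) and had 0.13 ± 0.07 in cultures labelled KO (0.288), and Fzd3, which serves planar polarity in neurons and skin, fell by 1.66 ± 0.19 in WT (5.08e-05) and had -0.14 ± 0.18 in cultures labelled KO (0.686). The responses of both differed between the labels, with edgeR adjusted p = 0.000657 for Fzd2 and 0.00588 for Fzd3. Both genes were named for a small p in the WT response, so these values are not independent of the naming.

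Ligands outside the 10 were few. Wnt9a rose from 17.9 and 24.5 to 53.9 and 60.4 CPM in female WT cultures (log2 difference 1.43 ± 0.23, edgeR adjusted p = 0.000489) and had 0.72 ± 0.23 in cultures labelled KO (0.0668). Wnt10b, the close relative of Wnt10a, passed in WT cultures (edgeR adjusted p = 0.0126) but stood only at 0.583 and 0.947 CPM with HDM. Wnt16 had 1.34 and 1.15 CPM naive and 0.202 and 0.609 CPM with HDM in female cultures labelled KO, a fall of 1.59 ± 0.44 on the log2 scale (edgeR adjusted p = 0.0418). In WT cultures its difference was -1.05 ± 0.42 (0.0596).

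Of 12 targets of the beta-catenin branch tested, 6 rose and 2 fell in female WT cultures, where 43.1% of all genes were called. The subgroups overlap. Tcf7, Lgr5, Znrf3 and Rnf43 are counted here and again among the core factors or the genes of receptor turnover below. Sp5, a transcription factor induced by Wnt, was at 0.218 and 0.135 CPM naive and 8.12 and 12.9 CPM with HDM (log2 difference 5.92 ± 0.57, edgeR adjusted p = 1.36e-05). Axin2, the negative feedback scaffold of the pathway, went from 2.76 and 2.70 to 12.5 and 12.0 CPM (2.17 ± 0.22, edgeR adjusted p = 1.98e-05). Apcdd1, a membrane inhibitor, rose by 1.53 ± 0.17 (4.33e-05). In female cultures labelled KO these 3 rose too, by 2.25 ± 0.53, 1.28 ± 0.22 and 0.86 ± 0.17, with edgeR adjusted p of 0.0207, 0.0042 and 0.00979. The smaller rise of Sp5 in cultures labelled KO passed as an interaction (-3.67 ± 0.79, edgeR adjusted p = 0.0155), which was lost without replicate 2 of any of the 4 female groups, and those of Axin2 (0.083) and Apcdd1 (0.0963) did not. Tnfrsf19 fell in both, by 2.10 ± 0.30 in WT and 1.43 ± 0.28 in cultures labelled KO (edgeR adjusted p = 0.000222 and 0.00855). The targets Nkd1 (-0.877 ± 0.892), Nkd2 (-0.838 ± 0.665), Znrf3 (-0.285 ± 0.162) and Myc (0.538 ± 0.246) did not pass in female WT cultures.

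Among the core and transcription factors, 2 of 8 rose and 2 fell in female WT cultures, where 20.6% of all genes were called higher and 22.4% lower. Tcf7 rose by 1.49 ± 0.22 on the log2 scale and Ctnnb1, which encodes beta-catenin, by 0.34 ± 0.10, while the repressor Tcf7l1 fell by 0.95 ± 0.13 (edgeR adjusted p = 0.000265, 0.0184 and 0.000136). In cultures labelled KO Tcf7 and Tcf7l1 kept their direction at 0.90 ± 0.22 and -0.53 ± 0.13 (edgeR adjusted p = 0.0239 and 0.0212). Genes of Wnt secretion and receptor turnover numbered 9 tested, of which 1 rose and 2 fell in female WT cultures (33.3%, against 43.1% of all genes). Lgr5, the R-spondin receptor of many stem cells, rose from 1.02 and 1.08 to 10.0 and 16.2 CPM (3.64 ± 0.59, edgeR adjusted p = 0.000514). Its relative Lgr4 fell by 0.75 ± 0.23 (0.0204) and Rnf43, a ligase that removes Frizzled, by 0.48 ± 0.13 (0.00948).

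Secreted inhibitors passed for 2 of 7 tested in female WT cultures and for 0 of 7 in cultures labelled KO, where 43.1% and 10.4% of all genes were called. Dkk3 rose from 41.0 and 54.2 to 92.5 and 95.2 CPM (0.98 ± 0.26, edgeR adjusted p = 0.0101). Frzb passed as well (edgeR adjusted p = 0.0124), but its HDM replicates held 1.12 and 6.49 CPM, and it was lost without both WT replicate 2 libraries. Wnt10b, Rnf43, Lgr4, Dkk3 and Ctnnb1 lost their calls in that setting too, with log2 differences there of 2.93 ± 1.31, -0.44 ± 0.15, -0.54 ± 0.28, 1.17 ± 0.38 and 0.35 ± 0.16. The differences kept their direction, and the standard errors were larger than with all libraries. Dkk2, at 4.37 and 12.9 CPM with HDM against 0.545 and 3.44 CPM naive, did not pass (edgeR adjusted p = 0.0873).

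Of 17 other planar polarity genes, 3 rose, 7 fell and 7 did not pass in female WT cultures, against 20.6% of all genes called higher and 22.4% lower. Dvl1, a Dishevelled, rose from 69.9 and 70.7 to 99.9 and 119 CPM (0.64 ± 0.09, edgeR adjusted p = 0.00013). Fat4, a giant cadherin of the polarity system, rose from 1.05 and 0.832 to 7.91 and 12.6 CPM (3.44 ± 0.58, edgeR adjusted p = 0.000633). Wdpcp, an effector needed for cilia, fell by 0.87 ± 0.14 in WT (0.000364) and by 0.63 ± 0.13 in cultures labelled KO (0.0121). Celsr1 and Celsr2, cadherins of the polarity core named after their values were seen, were both higher in female HDM libraries labelled KO than in female WT HDM libraries. The log2 differences were 0.98 and 0.74. Of the same 17 genes, 5 were called higher and 3 lower there, where 14.9% and 14.3% of all genes were. With HDM in female WT cultures Celsr1 fell by 0.925 ± 0.176 (edgeR adjusted p = 0.00142) and Celsr2 had -0.307 ± 0.233 (0.314).

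**Figure D5:**
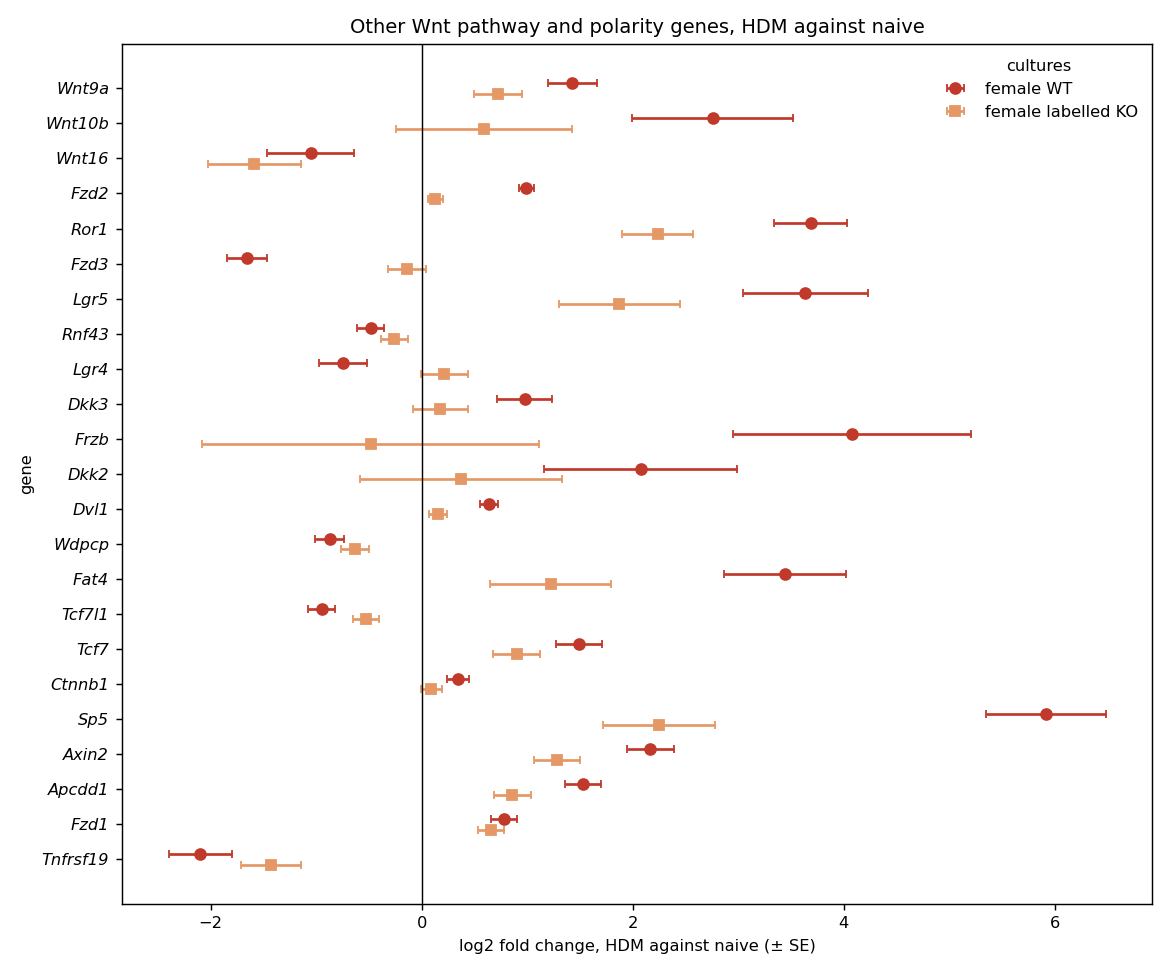
Log2 fold change of HDM against naive libraries (x axis) with its standard error (bars) for the other Wnt and polarity genes named, in female WT (circles) and female cultures labelled KO (squares), 2 libraries against 2. Sp5 reaches 5.92 in WT and 2.25 in cultures labelled KO, and Fzd3 lies at -1.66 in WT and -0.14 in cultures labelled KO.

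Under HDM, 10 of the 69 genes were higher and 13 lower in female libraries labelled KO than in female WT libraries, by the edgeR quasi-likelihood test with Benjamini-Hochberg adjustment. That was 33.3% of the 69, where 29.2% of all genes were called, 14.9% higher and 14.3% lower. Beta-catenin targets gave 6 of the lower ones, with Sp5 at -2.87 ± 0.46, Axin2 at -0.91 ± 0.21 and Apcdd1 at -0.78 ± 0.17 (edgeR adjusted p = 0.00121, 0.00821 and 0.00622). Without WT HDM replicate 2 or KO HDM replicate 2 the count of 23 dropped to 12 and 9. The sex comparison of the responses called 22 of the 69 in WT (31.9%, against 24.2% of all genes) and 5 in cultures labelled KO (7.25%, against 3.56%), the latter being Fzd1, Ror1, Axin2, Apcdd1 and Tnfrsf19. The KO count ran from 0 to 8 as single libraries were left out.

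Markers of other cells moved with some of these groups. The sum of 8 fibroblast markers was 27.4 and 547 CPM in female WT naive libraries and 49.4 and 598 CPM in HDM libraries. The gap between replicates was wider than that between treatments, and the sum was higher with HDM in both replicates. Wnt5a was at 188 and 184 CPM in that HDM pair. Col1a1 and Thy1 had their highest values outside the female HDM libraries, and the rest of the 8 within them. In female cultures labelled KO the sum was 110 and 95.4 CPM naive and 69.9 and 66.3 CPM with HDM, and Wnt5a was higher with HDM. Of the 8 fibroblast markers, 2 were called higher in the female WT comparison and 0 in the KO comparison, where 20.6% and 4.63% of all genes were, and Lum alone had a library at 0. Without both WT replicate 2 libraries, the female WT differences were 2.24 ± 0.25 for Wnt5a, 3.24 ± 0.61 for Prickle1 and 2.71 ± 0.67 for Ror2. That leaves 1 library a group, whose spread is taken from the others, and the count of genes called was then 6 of 10. Smooth muscle markers summed to 284 and 463 CPM in female WT HDM libraries against 60.3 and 146 CPM naive, almost all of it Acta2, and to 134 and 93.3 CPM against 27.4 and 46.8 CPM in cultures labelled KO. The part of fibroblast and smooth muscle markers in the results was not tested.

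Epithelial cell types moved as well. The sum of 7 secretory markers was 736 and 580 CPM in female WT naive and 11.5 and 11.5 CPM in HDM libraries, and 536 and 354 CPM naive against 110 and 87.0 CPM with HDM in cultures labelled KO. All 7 were called lower in WT and 4 in cultures labelled KO, where 22.4% and 5.77% of all genes were called lower. The sum of 6 basal markers was 9690 and 10630 CPM in female WT naive and 4308 and 2213 CPM in HDM libraries, while the pairs labelled KO had 9959 and 11240 CPM naive and 13150 and 10560 CPM with HDM. Of the 6, 4 were called lower in WT and 0 in cultures labelled KO. Between the female HDM pairs, 5 of 6 basal, 4 of 7 secretory and 3 of 6 squamous markers were called higher, and 3 of 8 fibroblast markers lower, in libraries labelled KO, where 14.9% of all genes were called higher and 14.3% lower. The sum of 8 ciliated markers was 123 and 140 CPM naive and 68.5 and 75.8 CPM with HDM in female cultures labelled KO, and 110 and 139 CPM naive and 103 and 115 CPM with HDM in female WT cultures. In male libraries it ran from 73.5 to 153 CPM. Foxj1 had by far the highest level in this sum, with a median of 73.1 CPM over all libraries, ahead of Cfap43 at 16.2 CPM. Rsph1, Tekt1, Ccdc39 and Dnai1 stayed under their medians in every female HDM library, whereas Foxj1, Cfap43, Dnah5 and Sntn did not. In bulk RNA, fewer cells of a type and less RNA per cell cannot be told apart, and the part of these shifts in the Wnt results was not tested.

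Across the 16 libraries, the genes whose log2 levels were most like those of Wnt5a among 11320 genes were St6gal1, Enc1, Osbpl3, Thbs1 and Cnn3, with Pearson's r of 0.981 to 0.987. Those most like Prickle1 were Tm4sf1, Mex3a, Enc1, Arl4c and Dbn1, with r of 0.983 to 0.987. The points share their libraries, and the female HDM libraries stand apart in all of these genes, so r describes that split for the most part. With a pseudocount of 4 in place of 1, 3 of the 5 names for Wnt5a and 1 of the 5 for Prickle1 stayed, and with Spearman's rho 0 and 1 did.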

How the data were processed

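MTECs were sequenced after mRNA enrichment, fragmentation, random priming and PCR. The deposited table held unnormalised counts for each Ensembl identifier in all 16 libraries, 1 column each. Per the submitters' processing notes, Trimmomatic 0.36, STAR 2.5.2b, featureCounts, Subread 1.5.2, DESeq2 and build GRCm38 were used. Their roles, the annotation release and the strand setting are not given in the sources used here, so reads of overlapping antisense genes cannot be told apart. Columns were matched to samples by sex, genotype, treatment and replicate, a column without a number being replicate 1 where its partner carried the number 2. Symbols, positions and exon lengths came from GENCODE M21 (49056 of 49315 identifiers matched), and promoters from RefSeq.

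The 10 genes, the pathway lists and the marker lists were chosen with earlier results of these data known. Other pathway genes named were the 3 of each subgroup with the smallest p in female WT cultures, plus all genes called where 5 or fewer were. For genes named by that p, interactions that hold the female WT response are not independent of the naming. Celsr1 and Celsr2 were named after their values were seen. Genes were filtered with filterByExpr by group, scaled with TMM, and fitted with the quasi-likelihood test of edgeR 4.0.16 (R 4.3.3) over all 8 groups. A gene was called at a Benjamini-Hochberg adjusted p under 0.05 over the 15993 genes tested, separately in each of 15 comparisons. The study's methods state no test for these data. DESeq2 1.42.0, other scaling, other filters, fits to the compared libraries only, a replicate block and leaving out each library were alternatives. In simulated data with the same spread for every gene, the test recovered known fold changes planted in well-counted genes of female WT HDM libraries. All other genes were left unchanged there, so low counts and broad shifts were not covered. With 2 libraries a group and pooled tracheas, p-values measure the spread between those cultures. Likeness used log2(CPM + 1) of genes with a mean of at least 2. A library with 3 counts or fewer was at the floor, which covers counting error only. Python 3.11.15 was used for summaries.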

Additional observations from a re-analysis of the deposited data

Results flagged for a closer look

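Effects that differed between groups by a test of the difference itself are listed here as values, all from the edgeR quasi-likelihood test with Benjamini-Hochberg adjustment. The female HDM response differed between labels, KO minus WT on the log2 scale, for Wnt4 (0.81, adjusted p = 0.00545), Wnt5a (-1.20, 0.0107) and Wnt7a (-2.69, 0.0156) of the 10 genes. Among the other genes it differed for Fzd2 (-0.86, 0.000657), Fzd3 (1.52, 0.00588), Dvl1 (-0.49, 0.0272) and Sp5 (-3.67, 0.0155). Of these, Fzd2 and Fzd3 kept their calls in all 16 alternatives. The adjusted p of Wnt4, Wnt5a and Wnt7a draw on the female HDM libraries used in choosing the genes, so they are descriptive. Fzd2, Fzd3, Dvl1 and Sp5 were named for a small p in the female WT response, which enters this difference. Their adjusted p are therefore not independent of the naming. Lman1 itself was higher in the female HDM pair labelled KO than in the naive pair. The part of that gap in the differences between labels was not tested. With libraries left out, Dvl1 lost its call in 8 alternatives (without each female library except WT HDM replicate 1, and without both WT replicate 2 libraries), Sp5 and Wnt7a in 5, Wnt5a in 3 and Wnt4 in 1.

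The HDM response of WT cultures differed between the sexes, female minus male, for the ligand Wnt9a (1.19, edgeR adjusted p = 0.0211). It differed for the receptors Ror1 (3.28, 0.000712), Fzd1 (0.76, 0.00885), Fzd2 (0.74, 0.00049) and Fzd3 (-1.31, 0.00421), and for Lgr5 (4.04, 0.0043) and the inhibitor Dkk3 (1.16, 0.0386). It also differed for the polarity genes Dvl1 (0.52, 0.00873), Fat4 (4.26, 0.00338) and Wdpcp (-0.95, 0.00385), and for Tcf7 (1.25, 0.013) and Tcf7l1 (-1.04, 0.00182). Among targets of beta-catenin it differed for Sp5 (5.68, 0.000689), Axin2 (2.23, 0.00049), Apcdd1 (1.5, 0.00141) and Tnfrsf19 (-2.09, 0.00337). Of these, Dkk3 lost its call in 8 of 16 alternatives, Wnt9a in 5, Tcf7 in 2, and Lgr5 and Dvl1 in 1 each. All but Fzd1 and Tnfrsf19 were named for a small p in the female WT response, which enters this difference. Their adjusted p are not independent of that naming. In cultures labelled KO the same difference passed for Ror1 (2.76, 0.0155), Axin2 (1.94, 0.00968), Apcdd1 (1.54, 0.00968), Fzd1 (0.96, 0.015) and Tnfrsf19 (-1.71, 0.0339). Of 15 alternatives, Tnfrsf19 lost its call in 8, Ror1 and Fzd1 in 4, and Axin2 and Apcdd1 in 2. Values of the 10 genes in the sex comparisons are in the report, without a test.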

How the results depend on the processing

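Counts are of the 10 genes and then of the 69 others, and the cause of each shift was not tested. With no filter on low counts, calls appeared in comparisons that had none: 1 and 2 for HDM in male WT, 5 and 3 for HDM in males labelled KO, 2 and 5 for sex in naive WT, 3 and 6 for sex in naive cultures labelled KO, 1 and 2 for genotype in naive females, 0 and 1 in naive males, and 6 and 17 in males under HDM. It also gave 9 and 36 for genotype in females under HDM, 6 and 23 for genotype by HDM and 6 and 18 for sex by HDM in cultures labelled KO. DESeq2 gave 4 and 5 for genotype in males under HDM, 11 of the others for genotype by HDM, 5 and 10 for sex by HDM in cultures labelled KO, and 1 of the others for sex in naive WT. With only the compared libraries, genotype in females under HDM had 9 of the 10, genotype by HDM 5 and 16, sex by HDM 3 of the 10 in WT and 6 and 9 in cultures labelled KO, and sex under HDM 38 of the others in cultures labelled KO.

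Leaving out 1 library, or both female WT replicate 2 libraries with high fibroblast sums (chosen after seeing the data), gave 6 to 9 and 19 to 33 for HDM in female WT, 0 to 3 and 3 to 7 in females labelled KO, and 0 to 1 of the others in males labelled KO. It gave 5 to 8 of the 10 for sex under HDM in WT and 14 to 18 of the others in cultures labelled KO, 9 to 29 of the others for genotype in females under HDM, 0 to 3 and 2 to 10 for genotype by HDM, 3 to 8 and 14 to 22 for sex by HDM in WT, and 0 to 4 and 0 to 8 in cultures labelled KO. No value of a named gene that had passed changed sign under any setting tried. Genes called in all ran from 5885 to 7005 for HDM in female WT over the settings that keep all libraries, from 1399 to 2804 in females labelled KO, from 3627 to 5149 for genotype in females under HDM and from 1358 to 3029 for genotype by HDM. They reached 149 for HDM in male WT and 705 in males labelled KO, and 644 and 859 for sex in naive WT and KO cultures. For genotype they reached 135 in naive females, 98 in naive males and 1896 in males under HDM. For sex by HDM in cultures labelled KO they reached 1977.

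Tracheas were pooled for pairs of conditions, but neither the labels nor the methods tie a replicate number to a pool, batch or animal. Deviations of same-numbered libraries correlated from -0.29 for sex in naive cultures labelled KO to 0.61 for HDM in male WT, with 0.514 for genotype in naive males, 0.25 in naive females, 0.359 for HDM in female WT, -0.156 in females labelled KO and -0.109 for genotype in females under HDM. The fibroblast sum was higher in replicate 2 in both treatments of WT cultures of both sexes. The replicate block gave 10, 4 and 4 of the 10 genes in these comparisons, and 3 for genotype by HDM. Of the calls of other named genes given in the text, it gained Dkk2 for HDM in female WT (edgeR adjusted p = 0.0291) and lost Tnfrsf19 for sex by HDM in cultures labelled KO. A block on crossed numbers, chosen after seeing the data, gave 4 in females labelled KO and 4 for genotype in females under HDM. With 2 libraries a group, small differences and genes near the floor of 3 counts were not resolved.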
